A study of Mus musculus with 6 samples.

Results

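The nuclear pore and nuclear transport genes are 47 of the 24421 genes in the count tables of Net39 mutant muscle. They were taken by symbol: those that start with Nup, Kpna, Ipo or Xpo and a number, and Kpnb1, Tpr, Ndc1, Pom121, Aaas, Ranbp2 and Ran. The 6 libraries of bulk RNA-Seq came from gastrocnemius/plantaris (GP) muscles of male mice aged 5 months, 3 months after tamoxifen. By their labels, the 3 Ctrl mice were Net39 fl/fl without Cre and the 3 cKO mice were Net39 fl/fl with HSA-CreERT2, a tamoxifen-inducible Cre under the human skeletal actin promoter, which is active in skeletal muscle and not in satellite cells, so that other cells of the muscle are not targeted. Both groups thus carried the floxed allele, in which loxP sites flank the first exon of Net39, and both received tamoxifen. The label gives B6C3F1 as the strain background, and the paper states that founders of the floxed line were mated to C57BL/6N mice. The comparison asks how loss of Net39, a muscle protein of the nuclear envelope, goes with the levels of these transcripts.

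The nuclear pore complex is a ring of nucleoporins that spans both membranes of the nuclear envelope. Transmembrane nucleoporins anchor it, inner and outer rings form its frame, nucleoporins with phenylalanine-glycine repeats fill its channel, and filaments extend into the cytoplasm and, as the nuclear basket, into the nucleus. Importins and exportins carry cargo through it, and the small GTPase Ran sets the direction by loading and unloading them. Importin alpha proteins bind nuclear localization signals and travel with importin beta (Kpnb1), while Xpo1 exports proteins with leucine-rich signals. In skeletal muscle the pore composition is known to change as myoblasts differentiate, with Nup210 among the nucleoporins that are induced.

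Net39, listed under its older symbol Ppapdc3, went against the labels. It had 310, 321 and 217 counts in the Ctrl-labelled libraries 1, 2 and 3, against 5365, 4340 and 6080 counts in the cKO-labelled libraries 1, 2 and 3. This is a log2 fold change of 4.22 (standard error of 0.17, adjusted p = 0.000161, edgeR's quasi-likelihood test). A deletion in the cKO-labelled mice would give the opposite direction. Whether labels or files were exchanged between the groups was not tested. The genotypes above are thus those of the labels, groups are named as labelled throughout, and log2 fold changes are given for cKO-labelled over Ctrl-labelled libraries. A member higher in the cKO-labelled libraries is higher where Net39 was high. Totals were 33860001 to 38201728 counts in the Ctrl-labelled libraries and 39191239 to 48839910 in the cKO-labelled libraries, and depth of the groups did not overlap. Summed markers of slow fibres were 8168 to 13640 CPM (counts per 1000000 counts, with library sizes scaled by edgeR's TMM method) in the Ctrl-labelled libraries and 344 to 3300 CPM in the cKO-labelled libraries, with 3 of 7 called lower. Immune markers summed to 51.8 to 65.8 CPM and to 26.9 to 42.3 CPM, with 3 of the 6 tested of 8 called lower. All 7 slow-fibre and all 6 immune markers tested were lower at an unadjusted p under 0.05 and in DESeq2, and no marker of these lists was at 0 in all libraries. Of 6 fibro-adipogenic progenitor markers 2 were called lower, in edgeR and in DESeq2. Of 19 tested markers of endothelial, satellite, dividing, Schwann and fat cells, 0 were called in edgeR, 4 were lower at an unadjusted p under 0.05 and 1 was lower in DESeq2. Acta1, the actin of skeletal muscle fibres, was at 29980 to 40530 CPM over all libraries. Of 8 markers of myofibres in general, 2 were called higher and 2 lower. The fast-fibre myosin Myh4 was called higher, at 15350 to 36560 CPM in the Ctrl-labelled and 57350 to 80130 CPM in the cKO-labelled libraries. The other fast myosins were called lower, Myh1 at 7387 to 11510 CPM and 4342 to 6795 CPM and Myh2 at 5541 to 10140 CPM and 2479 to 5305 CPM. The part of depth, fibre types and other cells in the results below was not tested. In whole muscle, fewer cells of a type and less RNA per cell cannot be told apart.

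Among the pore proteins, Nup210, Nup153 and Tpr were higher and Nup188 was lower in the cKO-labelled libraries. Among the transport receptors, Kpna1, Kpna3, Kpna6, Ipo8 and Xpo7 were higher and Xpo6 was lower, while Ran, Kpnb1 and Xpo1, the core of the cycle, were not called. Of the 47 members, 45 passed the filter on low counts. Kpna7, an importin alpha known from oocytes and early embryos, had 0 counts in all 6 libraries, which allows up to 3 counts per library from counting error alone, or at most 0.0847 CPM. Nup62cl had 0, 1 and 3 counts in the Ctrl-labelled libraries and 1, 2 and 6 counts in the cKO-labelled libraries, and was not tested. At an adjusted p under 0.05 from edgeR's quasi-likelihood test, adjusted over the 14180 genes tested, 8 members were higher in the cKO-labelled libraries. Among all genes tested 12.6% were called in that direction. By contrast, 2 members were lower by this test, beside 11.8% of all genes. With a fold change over 2 as well, 1 member was higher (2.13% of all genes) and 0 were lower in edgeR, beside 3.92% of all genes. No member had a log2 fold change below -0.54. The 8 and 2 members are thus 17.8% and 4.44% of the 45, and whether the group as a whole departs from other genes was not tested.

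The median log2 fold change was 0.105 over the members tested, with 34 above 0 and 11 below, beside a median of -0.0155 over all genes tested. Groups did not overlap for 14 members that were higher in the cKO-labelled libraries (22.0% of all genes) and for 2 that were lower (21.9% of all genes). For each of those members the exact two-sided permutation test gave p = 0.1, and groups of 3 cannot give a smaller one. The split changed with the scaling of the libraries. When libraries were scaled by total counts alone, the median of all genes moved to -0.269, members called higher went from 8 to 2, and members called lower went from 2 to 5, while all genes called went from 1786 higher and 1668 lower to 673 higher and 4074 lower. Relative to the median of all genes, the members' median was 0.121 with TMM factors and 0.114 with total counts, and 34 of 45 lay above that median under both. Relative to 0, however, 12 lay above and 33 below with total counts, as 22 members changed sign. At an unadjusted p under 0.05, 13 members were higher and 2 lower, beside 19.2% and 19.6% of all genes.

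**Figure D1:**
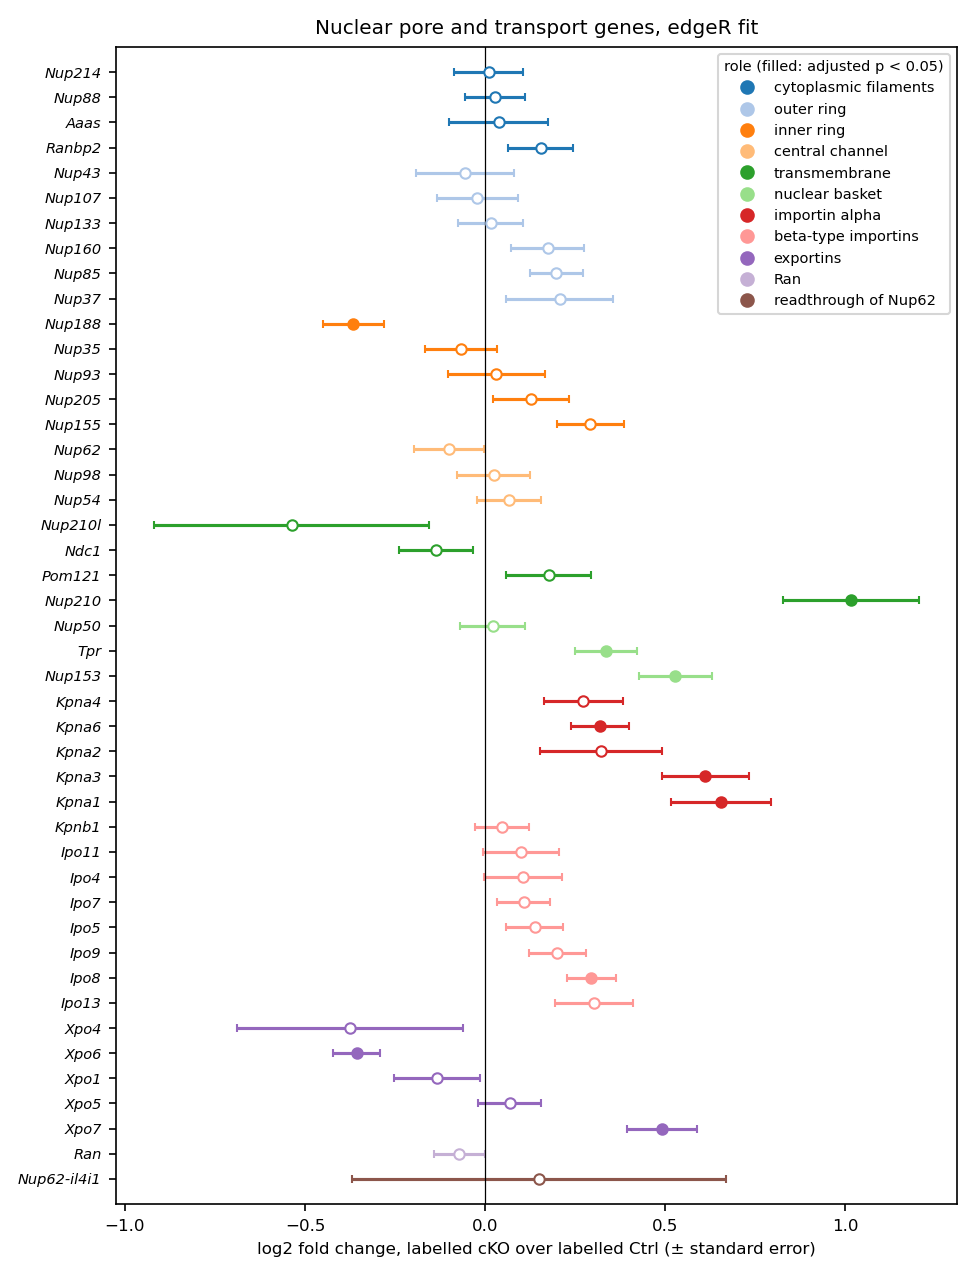
Log2 fold change (labelled cKO over labelled Ctrl, x axis) with its standard error for each of the 45 members tested, grouped by role (colour). Filled points passed an adjusted p of 0.05: 8 to the right of 0, led by Nup210 at 1.02, and 2 to the left, Nup188 at -0.37 and Xpo6 at -0.36. Of all genes tested, 12.6% passed higher and 11.8% lower. When libraries were scaled by total counts alone, points shift to the left with the median of all genes. Then 2 higher and 5 lower members pass, beside 673 higher and 4074 lower of all genes.

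The 10 members past an adjusted p of 0.05 were Nup210, Kpna1, Kpna3, Nup153, Xpo7, Tpr, Kpna6 and Ipo8 (higher in the cKO-labelled libraries) and Nup188 and Xpo6 (lower). RefSeq promoters (assembly GRCm38.p6, 250 bases before to 50 after the annotated start, transcript strand) were at hand for 37 members and for 6 of these 10. They are shown because these transcripts moved, in both directions, and so that their start regions can be set side by side. Capitals mark letters of any of 8 motifs, searched on both strands, so that a GC box can also read CCGCCC and a CCAAT box ATTGG. The promoters are those of Nup210 (chr6:91116777-91117076, minus strand), Nup153 (chr13:46727800-46728099, minus strand), Tpr (chr1:150392588-150392887, plus strand), Ipo8 (chr6:148831418-148831717, minus strand), Nup188 (chr2:30286166-30286465, plus strand) and Xpo6 (chr7:126200452-126200751, minus strand).
Nup210: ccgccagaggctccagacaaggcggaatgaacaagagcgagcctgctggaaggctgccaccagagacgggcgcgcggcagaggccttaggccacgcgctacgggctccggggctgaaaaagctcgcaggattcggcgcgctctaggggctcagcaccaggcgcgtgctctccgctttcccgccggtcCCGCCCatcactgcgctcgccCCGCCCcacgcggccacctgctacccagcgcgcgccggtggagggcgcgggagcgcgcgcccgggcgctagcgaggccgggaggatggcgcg
Nup153: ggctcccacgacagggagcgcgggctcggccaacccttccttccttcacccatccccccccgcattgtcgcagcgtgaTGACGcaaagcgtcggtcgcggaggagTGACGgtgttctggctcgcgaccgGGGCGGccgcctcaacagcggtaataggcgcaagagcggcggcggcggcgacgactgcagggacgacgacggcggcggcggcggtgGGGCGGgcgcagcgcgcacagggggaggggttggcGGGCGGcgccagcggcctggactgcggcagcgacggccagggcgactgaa
Tpr: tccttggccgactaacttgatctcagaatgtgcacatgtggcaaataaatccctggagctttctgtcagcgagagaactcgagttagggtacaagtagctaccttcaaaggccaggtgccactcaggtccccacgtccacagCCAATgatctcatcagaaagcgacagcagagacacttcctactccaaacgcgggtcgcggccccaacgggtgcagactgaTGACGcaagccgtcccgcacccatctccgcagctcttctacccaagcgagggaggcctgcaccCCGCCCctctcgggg
Ipo8: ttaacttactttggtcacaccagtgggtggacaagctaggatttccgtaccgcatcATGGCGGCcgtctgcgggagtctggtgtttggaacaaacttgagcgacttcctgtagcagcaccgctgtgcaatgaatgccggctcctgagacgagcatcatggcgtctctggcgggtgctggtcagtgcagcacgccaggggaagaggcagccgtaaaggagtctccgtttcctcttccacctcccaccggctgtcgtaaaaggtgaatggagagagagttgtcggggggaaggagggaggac
Nup188: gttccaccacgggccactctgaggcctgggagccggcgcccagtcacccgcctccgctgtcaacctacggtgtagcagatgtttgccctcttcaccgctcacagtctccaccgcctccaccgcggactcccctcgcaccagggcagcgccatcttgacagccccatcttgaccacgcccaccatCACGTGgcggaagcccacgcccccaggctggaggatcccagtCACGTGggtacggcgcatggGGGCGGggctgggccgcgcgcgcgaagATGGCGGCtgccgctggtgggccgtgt
Xpo6: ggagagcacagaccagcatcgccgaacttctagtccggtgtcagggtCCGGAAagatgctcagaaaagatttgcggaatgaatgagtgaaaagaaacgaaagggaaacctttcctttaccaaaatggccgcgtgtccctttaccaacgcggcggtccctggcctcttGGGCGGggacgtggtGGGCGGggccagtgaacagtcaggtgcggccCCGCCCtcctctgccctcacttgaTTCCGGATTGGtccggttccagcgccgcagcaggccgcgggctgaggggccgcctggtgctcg

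GC content of the promoters shown was 73.7% in Nup210, 74.0% in Nup153, 58.0% in Tpr, 57.7% in Ipo8, 70.0% in Nup188 and 61.7% in Xpo6. The median was 64.2% over the members' promoters, beside 60.3% over promoters of genes tested and 52.7% over all 32851 promoters of the table. The GC box (GGGCGG) was found in 67.6% of the members, in 66.9% of genes tested and in 38.2% of all genes with a promoter. It was present in 5 of the 6 shown, all but Ipo8. The CCAAT box (CCAAT) was found in 51.4% of members, 42.0% of genes tested and 41.1% of all genes, and among those shown in Tpr and Xpo6. The ETS motif (CCGGAA) was found in 27.0% of members, 29.2% of genes tested and 16.7% of all genes, and of those shown in Xpo6. For the GC box and the ETS motif the members' shares lay close to those of genes tested.

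The YY1 motif (ATGGCGGC) was found in 6 members (16.2%), in 5.23% of genes tested and in 2.60% of all genes, and in Ipo8 and Nup188 of those shown. The core of the cAMP response element (TGACG) was found in 48.6%, 34.0% and 23.0%, and in Nup153 and Tpr. The E-box CACGTG, which MYC and USF proteins bind, was found in 18.9%, 11.5% and 8.09%, and stands at 2 places in Nup188. The E-box CAGCTG, which MyoD binds, was found in 1 member (2.70%), beside 18.8% of genes tested and 18.3% of all genes. The MEF2 motif was found in 2.70% of members, 2.43% of genes tested and 3.70% of all genes, and in 0 of the 6 shown. None of the motifs searched overlaps another in the promoters shown, though an ETS motif and a CCAAT box stand next to each other in Xpo6. The GC box, the CCAAT box and the YY1 motif each occurred in members called higher and in members called lower. These are matches of letters in a window of 300 bases, with no test.

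Among the transmembrane nucleoporins, Nup210 was the member with the largest difference. Nup210 is a pore membrane protein with a large domain in the lumen of the nuclear envelope. Its gene lies on chromosome 6 of GRCm38 (91013068 to 91116829, minus strand). Nup210 was at 24.3, 28.2 and 30.1 CPM in the Ctrl-labelled libraries and at 62.3, 39.8 and 64.9 CPM in the cKO-labelled libraries. All 3 libraries labelled cKO were above the highest labelled Ctrl, and the library labelled cKO 2 was the lowest of its group. Its log2 fold change came to 1.02 (standard error 0.19, adjusted p = 0.0111, edgeR), a 2.02-fold difference, and it remained past an adjusted p of 0.05 with each library left out (log2 fold change 0.875 to 1.19, adjusted p at most 0.0468). Among the libraries left out and the scalings tried, the fold change over 2 was lost without Ctrl 1 (0.93), without cKO 1 (0.92), without cKO 3 (0.88) and with total counts (0.75, or 1.02 above the median of all genes).

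The other transmembrane nucleoporins did not pass. Pom121, which acts early in pore assembly, was at 26.0, 24.9 and 25.0 CPM in the Ctrl-labelled libraries and at 31.4, 23.6 and 30.8 CPM in the cKO-labelled libraries (log2 fold change 0.18, adjusted p = 0.307, edgeR). Ndc1 was at 10.1, 10.1 and 9.19 CPM and at 9.34, 8.13 and 9.29 CPM (-0.14, adjusted p = 0.367, edgeR). The groups overlapped in both genes. Nup210l, a relative of Nup210 known from testis, was at 0.792, 0.459 and 0.383 CPM and at 0.339, 0.493 and 0.295 CPM (-0.54, standard error 0.38, adjusted p = 0.335, edgeR). Nup210 made up 28.4% ± 2.88 (SD, n = 3) of the summed level per length of these 4 genes in the Ctrl-labelled libraries and 42.7% ± 3.41 in the cKO-labelled libraries. Within a library, Nup210 over Ndc1 counts were 2.40, 2.80 and 3.28 (Ctrl-labelled) and 6.67, 4.89 and 6.98 (cKO-labelled). Nup210 over Pom121 counts differed less, at 0.934, 1.13 and 1.21 (Ctrl-labelled) and 1.99, 1.69 and 2.11 (cKO-labelled). No scaling of libraries can change these ratios, and the pairs were chosen after their values were seen.

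In the nuclear basket, Nup153 and Tpr were called higher in the cKO-labelled libraries while Nup50 was not. Nup153, which links the basket to the pore and binds importins, was at 48.0, 45.9 and 57.0 CPM in the Ctrl-labelled libraries and at 73.9, 67.8 and 75.8 CPM in the cKO-labelled libraries. Its groups were well apart, with Ctrl 3 the highest of its group. Its log2 fold change came to 0.53 (standard error 0.10, adjusted p = 0.0120, edgeR). Tpr, the long coiled-coil protein that forms the basket's filaments, was at 98.7, 98.6 and 109 CPM and at 134, 119 and 134 CPM. Its groups did not overlap (log2 fold change 0.33, standard error 0.09, adjusted p = 0.0306, edgeR). Nup50, a cofactor that helps release cargo from importin alpha, was at 22.1, 21.9 and 24.9 CPM and at 22.6, 25.0 and 22.3 CPM, with overlapping groups (0.02, adjusted p = 0.888, edgeR).

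Of the basket's summed level per length, Nup153 held 33.1% ± 1.17 in the Ctrl-labelled and 37.7% ± 0.718 in the cKO-labelled libraries (SD, n = 3). Nup50 held 21.7% ± 0.188 and 17.4% ± 1.85, and Tpr 45.1% ± 0.984 and 44.8% ± 1.28. Exons of Tpr overlap those of Prg4 and Odr4 on the other strand, and whether counting used strand is not given in the sources used here. The call of Nup153 was lost without Ctrl 1 (adjusted p = 0.0506) and that of Tpr without Ctrl 1, Ctrl 2, cKO 1 or cKO 3 (adjusted p up to 0.11, edgeR). With total counts, both missed the threshold, at log2 fold changes of 0.27 and 0.08 (0.54 and 0.35 above the median of all genes).

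The inner ring held the single pore protein called lower, Nup188, a large scaffold subunit that pairs with Nup93. Nup188 was at 23.7, 21.4 and 21.6 CPM in the Ctrl-labelled libraries and at 18.0, 16.1 and 17.5 CPM in the cKO-labelled libraries. Every library labelled cKO was below every library labelled Ctrl, and its log2 fold change came to -0.37 (standard error 0.09, adjusted p = 0.0230, edgeR). Its relative Nup205 was at 15.2, 16.3 and 18.0 CPM and at 18.2, 19.5 and 16.3 CPM, so its groups overlapped (0.13, adjusted p = 0.405, edgeR). Nup155 had groups that did not overlap, 14.1 to 16.0 CPM and 17.0 to 19.5 CPM, but did not pass (0.29, adjusted p = 0.0601, edgeR). Nup93 and Nup35 had log2 fold changes of 0.03 and -0.07.

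Of the inner ring's summed level per length, Nup188 held 25.1% ± 1.54 in the Ctrl-labelled and 20.1% ± 0.426 in the cKO-labelled libraries (SD, n = 3), and Nup155 held 8.88% ± 0.622 and 11.2% ± 0.270. The summed level itself was 14.2 ± 0.109 CPM per kilobase of exon in the Ctrl-labelled libraries and 13.8 ± 0.863 in the cKO-labelled libraries. The call of Nup188 was lost without Ctrl 1, Ctrl 2, cKO 1 or cKO 3 (adjusted p up to 0.0884, log2 fold change -0.411 to -0.317 with any library left out). Its exons overlap those of other annotated genes on both strands. Counts of Nup153 over counts of Nup188 within a library were 2.03, 2.14 and 2.64 in the Ctrl-labelled libraries and 4.10, 4.20 and 4.32 in the cKO-labelled libraries. This pair was chosen after its values were seen.

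Of the 13 cytoplasmic filament, outer ring and central channel genes tested, 0 were called at an adjusted p under 0.05 by edgeR (12.6% of all genes higher, 11.8% lower) or DESeq2 (14.9% and 13.2%). The 4 cytoplasmic filament genes, Nup88, Nup214, Ranbp2 and Aaas, had log2 fold changes of 0.01 to 0.15, and 0 had an unadjusted p under 0.05, beside the 19.2% higher and 19.6% lower of all genes. The 6 outer ring genes had log2 fold changes of -0.06 to 0.21. Nup85 was the outer ring member with an unadjusted p under 0.05, at 22.0 to 23.2 CPM and 24.8 to 26.8 CPM, with no overlap (0.20, adjusted p = 0.0886, edgeR). The 3 central channel genes tested, Nup54, Nup62 and Nup98, had log2 fold changes of -0.10 to 0.07, and 0 had an unadjusted p under 0.05, beside those same shares of all genes. The Nup98 gene also encodes Nup96, a subunit of the outer ring. Nup62-il4i1, by its name a readthrough transcript of Nup62 and its neighbour, had 4 to 16 counts per library, and its values are uncertain because it can share reads with Nup62.

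**Figure D2:**
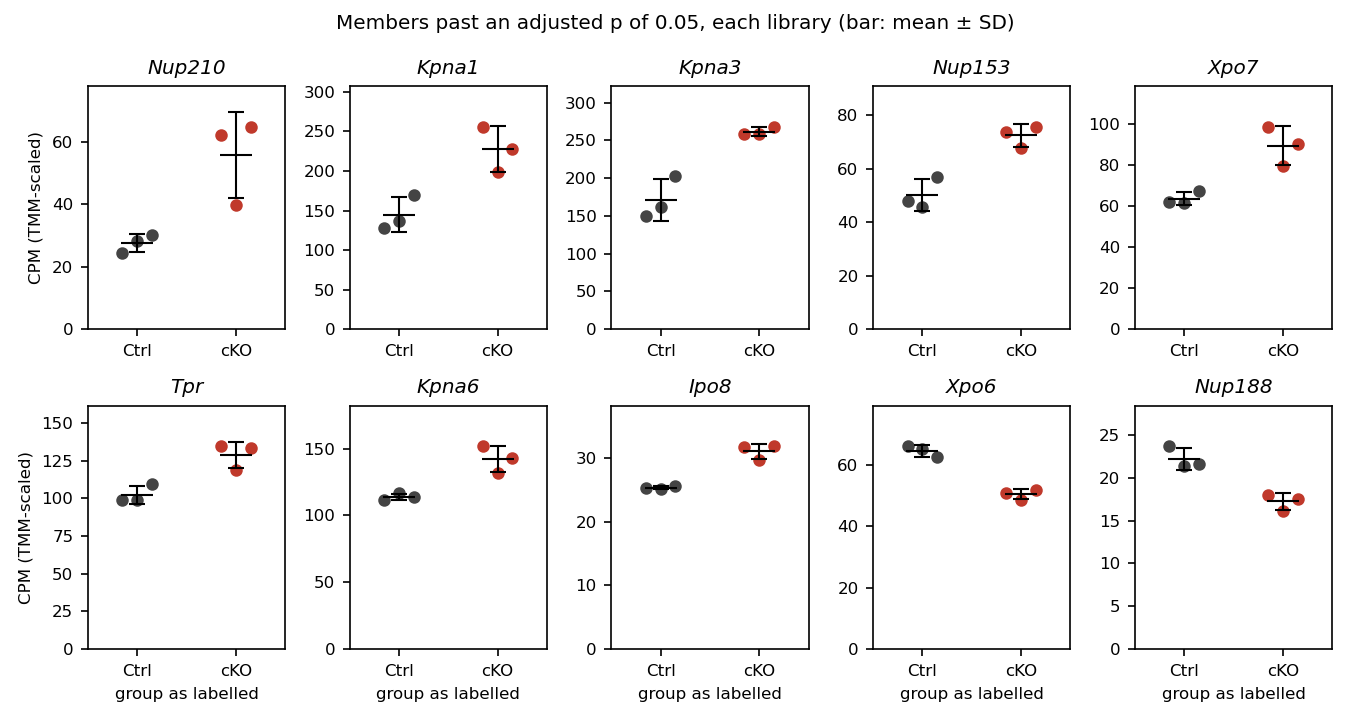
CPM (y axis, from 0, TMM-scaled) of the 10 members past an adjusted p of 0.05 in each library, with the mean and SD of 3 libraries per labelled group. In each panel the groups do not overlap, and in Nup210 the library labelled cKO 2 sits at 39.8 CPM, nearest to the libraries labelled Ctrl.

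The importin alpha genes lay above 0 in all 5 members tested, and 3 of them were called higher. Among all 14180 genes tested 6843 lay above 0 and 12.6% were called higher. Kpna1 was at 127, 137 and 169 CPM in the Ctrl-labelled libraries and at 256, 198 and 228 CPM in the cKO-labelled libraries (log2 fold change 0.65, standard error 0.14, adjusted p = 0.0173, edgeR). Kpna3 was at 150, 161 and 202 CPM and at 258, 258 and 268 CPM (0.61, standard error 0.12, adjusted p = 0.0134, edgeR). In both, Ctrl 3 was the highest of its group and still below every library labelled cKO. Kpna6 was at 112, 116 and 114 CPM and at 152, 132 and 143 CPM (0.32, standard error 0.08, adjusted p = 0.0279, edgeR). Kpna4 overlapped between groups, at 137, 130 and 149 CPM and at 184, 145 and 174 CPM (0.27, adjusted p = 0.114, edgeR). Kpna2, an adaptor abundant in dividing cells, was at 11.4, 12.7 and 10.7 CPM and at 15.3, 11.0 and 17.2 CPM, with overlap (0.32, adjusted p = 0.205, edgeR).

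The summed level per length of the importin alpha genes was 93.4 ± 9.74 CPM per kilobase of exon (SD, n = 3) in the Ctrl-labelled libraries and 133 ± 8.33 in the cKO-labelled libraries. Kpna3 held the largest share in both, 42.5% ± 2.32 and 46.0% ± 2.76, and Kpna1 held 18.2% ± 0.844 and 20.2% ± 1.44. The family's median log2 fold change was 0.321, or 0.336 above the median of all genes, and all 5 members also lay above 0 with total counts (median 0.0606). Of the 3 calls, only that of Kpna1 was kept with total counts (0.39, adjusted p = 0.0373), while Kpna3 (0.36, adjusted p = 0.0548) and Kpna6 (0.06, adjusted p = 0.512, edgeR) missed the threshold. The call of Kpna3 was lost without Ctrl 2 (adjusted p = 0.0543), that of Kpna1 without Ctrl 1, Ctrl 2, cKO 1 or cKO 3 (adjusted p up to 0.0642), and that of Kpna6 with any library left out except cKO 2 (adjusted p up to 0.101, edgeR). Without cKO 2, Kpna2 and Kpna4 were called as well.

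Of the 8 beta-type importins, 1 was called higher and 0 lower in edgeR, beside 12.6% and 11.8% of all genes, so the share called higher was near that of all genes. Kpnb1, the receptor that carries importin alpha, was at 124, 124 and 127 CPM in the Ctrl-labelled libraries and at 138, 123 and 127 CPM in the cKO-labelled libraries, with overlapping groups (log2 fold change 0.05, standard error 0.07, adjusted p = 0.685, edgeR). Ipo8, a receptor with Argonaute proteins among its known cargo, was that member. It was at 25.3, 25.2 and 25.6 CPM and at 31.7, 29.7 and 31.8 CPM, with a narrow spread in the Ctrl-labelled libraries (0.29, standard error 0.07, adjusted p = 0.0224, edgeR). Ipo13 did not pass, at 291, 320 and 252 CPM and at 372, 336 and 355 CPM, although its groups did not overlap (0.30, standard error 0.11, adjusted p = 0.0846, edgeR). Ipo5, Ipo7 and Ipo9 did not overlap between groups either and were not called, with log2 fold changes of 0.14, 0.11 and 0.20. Ipo4 and Ipo11 overlapped.

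All 8 beta-type importins had log2 fold changes above 0 with TMM factors (median 0.122), but 2 of 8 did with total counts (median -0.134), and all 8 lay above the median of all genes under both scalings. The call of Ipo8 was lost without Ctrl 1, Ctrl 2, cKO 1 or cKO 3 (adjusted p up to 0.101, edgeR). Within the family, Ipo13 held 41.3% ± 3.39 and 44.6% ± 0.305 (SD, n = 3) of the summed level per length and Kpnb1 held 11.5% ± 0.568 and 10.4% ± 0.134. Counts of Kpna1 over counts of Kpnb1 within a library were 1.02, 1.10 and 1.34 in the Ctrl-labelled libraries and 1.86, 1.61 and 1.80 in the cKO-labelled libraries. For Kpna3 over Kpnb1 the ratios were 1.21, 1.30 and 1.6 in the Ctrl-labelled and 1.87, 2.09 and 2.12 in the cKO-labelled libraries. The counts of these adaptors thus differed between groups relative to those of their shared receptor, in pairs chosen after the values were seen and therefore not tested.

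Of the 5 exportins, 1 was called in each direction, beside 12.6% of all genes higher and 11.8% lower. Xpo7, a receptor with many kinds of cargo, was at 61.8, 61.5 and 67.4 CPM in the Ctrl-labelled libraries and at 98.6, 79.4 and 90.2 CPM in the cKO-labelled libraries (log2 fold change 0.49, standard error 0.10, adjusted p = 0.0133, edgeR). Xpo6, which exports actin bound to profilin, was at 66.0, 65.0 and 62.4 CPM and at 50.8, 48.6 and 51.7 CPM (-0.36, standard error 0.07, adjusted p = 0.0109, edgeR). Neither gene overlapped between groups, and the SD of Xpo6 was 1.84 and 1.6 CPM. Xpo1 was at 42.2, 35.7 and 45.9 CPM and at 33.5, 41.5 and 37.7 CPM, with overlap (-0.13, standard error 0.12, adjusted p = 0.444, edgeR). Xpo5, which exports precursors of microRNAs, had a log2 fold change of 0.07. Xpo4 was at 4.83, 3.19 and 4.84 CPM and at 3.58, 4.39 and 1.95 CPM (-0.38, standard error 0.31, adjusted p = 0.412, edgeR).

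Of the summed level per length of the exportins, Xpo7 held 20.3% ± 0.718 in the Ctrl-labelled libraries and 28.3% ± 2.67 in the cKO-labelled libraries, and Xpo6 held 23.1% ± 1.87 and 17.9% ± 0.500 (SD, n = 3). The sum itself was 16.5 ± 1.01 and 16.6 ± 0.246 CPM per kilobase of exon. These shares depend on the length used: over the longest transcript Xpo7 held 17.0% ± 0.563 and 24.6% and Xpo6 35.6% ± 2.39 and 28.6%, so that Xpo6 stood above Xpo7 in both groups. Xpo7 over Xpo6 counts within a library were 0.937, 0.946 and 1.08 in the Ctrl-labelled libraries and 1.94, 1.63 and 1.75 in the cKO-labelled libraries, so Xpo6 had more counts than Xpo7 in 2 of the 3 libraries labelled Ctrl and fewer in all 3 labelled cKO. This pair, too, was chosen after its values were seen. Xpo6 was called with each library left out (adjusted p at most 0.0470), while the call of Xpo7 was lost without Ctrl 1, Ctrl 2 or cKO 3 (adjusted p up to 0.0553, edgeR). With total counts the log2 fold change of Xpo7 was 0.23 and missed the threshold, and that of Xpo6 was -0.61 and passed.

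**Figure D3:**
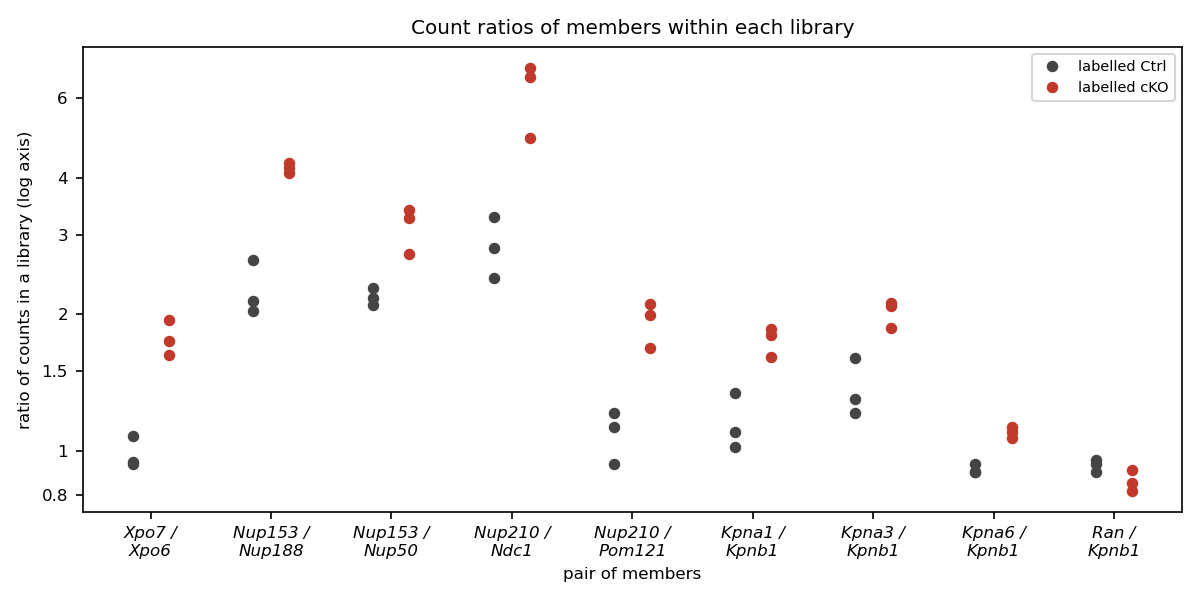
Counts of a member divided by counts of another in the same library (y axis, log scale), 1 point per library, for pairs chosen after their values were seen. Xpo7 over Xpo6 is 0.937 to 1.08 in the Ctrl-labelled libraries and 1.63 to 1.94 in the cKO-labelled libraries, whereas Ran over Kpnb1 lies between 0.818 and 0.953 in all libraries and overlaps between groups.

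Ran, which powers the whole cycle, was at 112, 116 and 121 CPM in the Ctrl-labelled libraries and at 112, 112 and 108 CPM in the cKO-labelled libraries. Its groups overlapped, and its log2 fold change came to -0.07 (standard error 0.07, adjusted p = 0.488, edgeR). With total counts Ran was called lower, as were Ndc1 and Nup133. Its distance from the median of all genes was the same under both scalings, -0.06 on the log2 scale.

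Levels per length were compared with CPM per kilobase of exon, using the union of exons in GENCODE M21 since the annotation used for counting is not given in the sources used here. Ipo13, which carries cargo in both directions, was highest at 68.3 ± 8.18 (SD, n = 3) in the Ctrl-labelled libraries and 84.2 ± 4.35 in the cKO-labelled libraries. Kpna3 was at 39.8 ± 6.41 and 60.8 ± 1.39 and Ran at 44.0 ± 1.68 and 41.8 ± 1.05. Ran and Kpna3 thus lay within their spread of each other in the Ctrl-labelled libraries, and Kpna3 was above Ran in the others. Among tested members with a length in GENCODE M21, the lowest was Nup210l at 0.0952 ± 0.0380 and 0.0657 ± 0.0182. Next came Xpo4 at 0.399 ± 0.0887 and 0.308 ± 0.116, and Nup160 at 1.12 ± 0.0941 and 1.27 ± 0.0682. Nup62-il4i1 had no such length and is not ranked. Nup160, an outer ring subunit, was at 9.76, 9.05 and 10.7 CPM and at 11.5, 10.4 and 11.3 CPM (log2 fold change 0.17, adjusted p = 0.247, edgeR). In the mean of all 6 libraries the pore proteins tested, Nup210l aside, lay between 1.19 (Nup160) and 11.0 (Tpr). The members above Tpr were receptors and Ran: Ipo7, Ipo4, Kpna4, Kpna6, Kpnb1, Kpna1, Ipo5, Ran, Kpna3 and Ipo13. Ran and Ipo5 came to 42.9 and 42.0, with Ran the higher of the pair in the Ctrl-labelled libraries (40.0 ± 1.25 for Ipo5) and Ipo5 in the others (44.0 ± 2.39). This order depends on the length used. Over the longest transcript Ipo5 was the higher in both groups, at 53.1 ± 1.66 and 58.4 ± 3.17 against 48.0 ± 1.83 and 45.7 ± 1.15 for Ran. Nup210 was at 2.63 ± 0.282 and 5.31 ± 1.32.

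**Figure D4:**
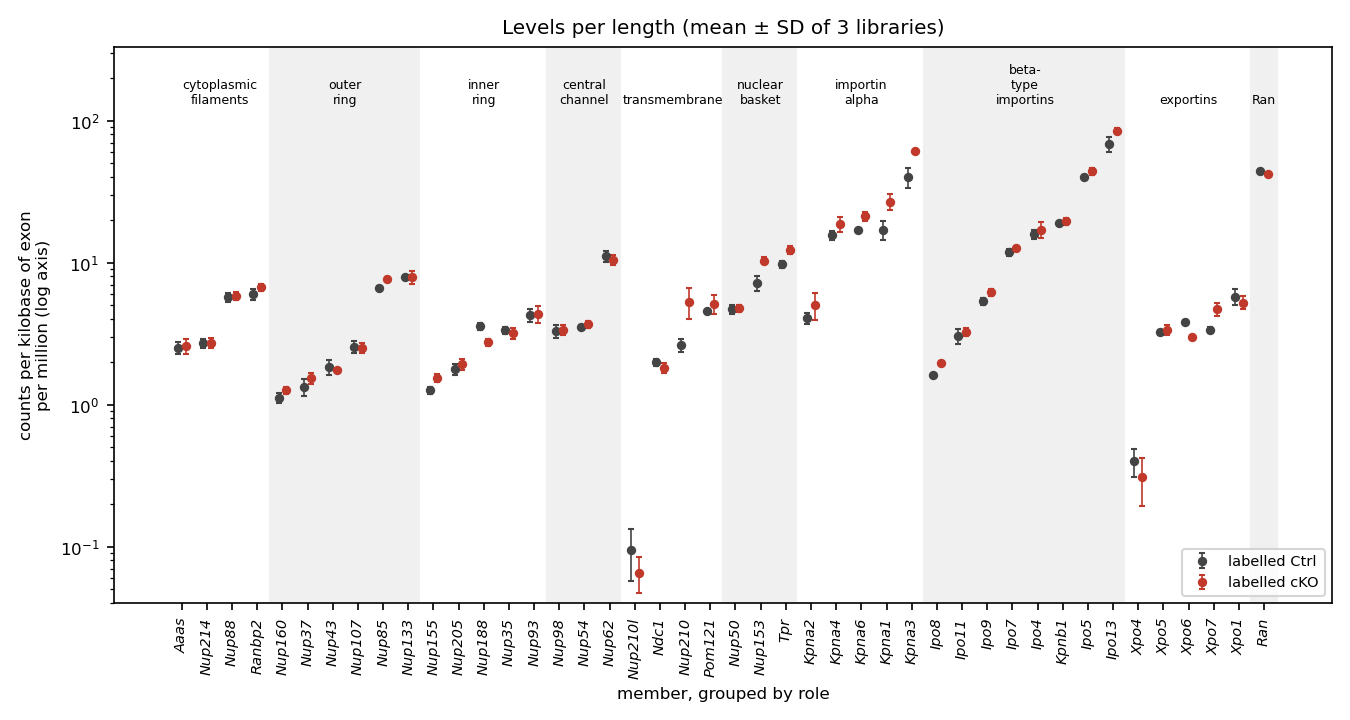
Level per length (CPM per kilobase of exon, log axis) of the members tested that are in GENCODE M21, grouped by role. Points are mean ± SD of 3 libraries per labelled group. Ipo13, Kpna3 and Ran lie near the top, with Ipo13 at 68.3 and 84.2, and Nup210l lies lowest at 0.0952 and 0.0657.

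Other genes of nuclear transport that the symbol rule does not take were read from the same fit. Of 36 such genes listed, 33 were in the tables under those symbols, and all 33 were tested. Of these, 3 (9.09%) were called higher in the cKO-labelled libraries and 1 (3.03%) lower, beside 12.6% and 11.8% of all genes. With a fold change over 2 as well, 0 of the 33 passed in edgeR, beside 2.13% of all genes higher and 3.92% lower. The largest log2 fold change of the 33 was 0.94. At an unadjusted p under 0.05, 11 were higher and 4 lower (33.3% and 12.1%), beside 19.2% and 19.6% of all genes. DESeq2 called 4 and 1, beside 14.9% and 13.2% of all genes. Nutf2, the carrier that brings Ran back into the nucleus, was at 9.09, 9.68 and 9.44 CPM in the Ctrl-labelled libraries and at 19.1, 15.2 and 19.9 CPM in the cKO-labelled libraries (log2 fold change 0.94, standard error 0.12, adjusted p = 0.00374, edgeR). Ahctf1 (ELYS), which seeds new pores on chromatin, was at 38.5, 37.6 and 30.9 CPM and at 65.1, 41.9 and 61.3 CPM (0.65, standard error 0.17, adjusted p = 0.0342, edgeR). As in Nup210, the library labelled cKO 2 was the lowest of its group in both.

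Ddx19b, an RNA helicase that acts on mRNA leaving the pore, was at 21.7, 23.2 and 23.1 CPM and at 29.6, 26.7 and 30.8 CPM (0.36, standard error 0.08, adjusted p = 0.0221, edgeR). Reads can be shared with its near copy Ddx19a (0.21, adjusted p = 0.114, edgeR), so the split between them is uncertain. Alyref, an adaptor that hands mRNA to the export receptor, was the one called lower, at 18.4, 17.4 and 16.7 CPM and at 13.6, 13.4 and 14.1 CPM (-0.36, standard error 0.08, adjusted p = 0.0209, edgeR). Cse1l, the exportin that returns importin alpha to the cytoplasm, was at 77.4, 81.4 and 83.9 CPM and at 110, 86.7 and 98.1 CPM and did not pass (0.28, adjusted p = 0.0820, edgeR). Of these calls, that of Nutf2 was kept with each library left out (log2 fold change 0.851 to 1.04, adjusted p at most 0.0196). That of Ahctf1 was lost with any library left out except cKO 2 (adjusted p up to 0.116), and those of Ddx19b and Alyref were lost without Ctrl 1, Ctrl 2, cKO 1 or cKO 3 (adjusted p up to 0.0921 and 0.0833, edgeR). With total counts Nutf2 (0.68) and Alyref (-0.61) were called and Ahctf1 and Ddx19b were not. Without a threshold on p, 17 of the 33 did not overlap between groups and were higher in the cKO-labelled libraries, and 6 were lower, beside 22.0% and 21.9% of all genes.

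The calls of single members depended on which libraries entered. Leaving out 1 library at a time gave 2 members called higher without Ctrl 1, 2 without Ctrl 2, 7 without Ctrl 3, 4 without cKO 1, 12 without cKO 2 and 3 without cKO 3. Calls over all genes moved with them, to 766, 873, 1703, 896, 1777 and 772 higher in the same order, beside 1786 with all libraries. The 4 members gained without cKO 2 were Kpna2, Kpna4, Nup155 and Pom121, and the 8 called with all libraries were kept. Members called lower were 2 without Ctrl 3 or cKO 2 and 1 without any of the others, in each case Xpo6, while all genes called lower were 809, 947, 1529, 893, 1808 and 788 in the same order, beside 1668 with all libraries. Signs of all 10 called members were the same with every library left out and under every other setting tried.

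**Figure D5:**
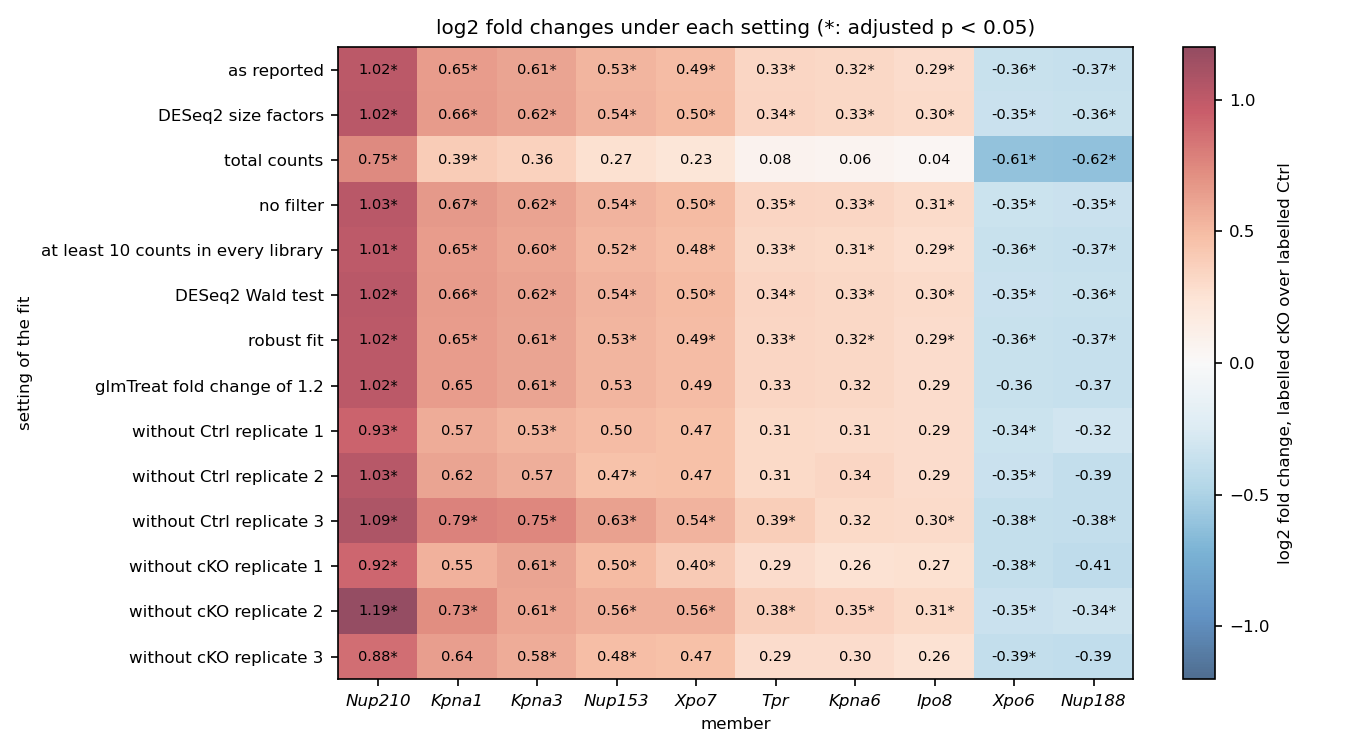
Log2 fold change (labelled cKO over labelled Ctrl, number and colour) of the 10 called members (x axis) under each setting of the fit (y axis), with an asterisk where the adjusted p was under 0.05. Nup210 carries an asterisk in every setting and Xpo6 in all but the test against a fold change of 1.2, while with total counts the values of all members shift down with the median of all genes.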

How the data were processed

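The authors deposited 1 table of whole-number gene counts per library, without normalization: paired-end mRNA reads were checked with FastQC 0.11.8, trimmed with Trimmomatic 0.39, aligned to mm10 with HISAT2 2.1.0 and counted with featureCounts 1.6.2. Annotation and strand setting are not given in the sources used here. Groups came from the sample labels (3 mice each). The members and gene lists were chosen with earlier results of these data known.

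The main test was edgeR 4.0.16 in R 4.3.3 (TMM factors, filterByExpr, glmQLFit, glmQLFTest, Benjamini-Hochberg adjustment over 14180 genes), checked on simulated data. Standard errors were derived from the F statistic. DESeq2 1.42.0 was an alternative. The authors used DESeq, with the same thresholds (adjusted p under 0.05, fold change over 2). Other alternatives were DESeq2's size factors, total counts, other filters, a robust fit, glmTreat against a fold change of 1.2, a replicate block and each library left out. Single members were also compared by exact two-sided permutation tests.

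Named with values were all members called, Nup210, Ran, Kpnb1, Xpo1, the members with the 3 highest and 3 lowest levels per length, and members not tested. Other members named with values were chosen after their values were seen. Positions and exon lengths came from GENCODE M21 (GRCm38, the assembly of mm10), which held 46 of 47 members (15 with exons that overlap another gene's, the called Tpr, Nup188, Xpo7 and Ipo8 among them), and promoters from RefSeq (GRCm38.p6). Each value rests on 33860001 to 48839910 counts per library, and replicates of a group differed by more than counting error (chi-square per degree of freedom 29.5 to 101). Limits from counts cover counting error only.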

Additional observations from a re-analysis of the deposited data

How the results depend on the processing

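All 10 called members kept their direction under every alternative run, and Nup210 kept its call in each. The numbers of members called higher and lower were the same, 8 and 2, with the robust fit, DESeq2's size factors, a minimum of 10 counts in each library or no filter. All genes called higher were 1776, 1820, 1739 and 1714 in the same order, beside 1786 in the main fit. All genes called lower were 1642, 1618, 1603 and 1521, beside 1668. In DESeq2's Wald test the members called were 9 and 2, with Ipo13 added (14.9% and 13.2% of all genes). With total counts they were 2 and 5, other transport genes called were 1 higher and 7 lower, all genes called were 673 higher and 4074 lower (157 and 1023 with a fold change over 2), and the members' median log2 fold change was -0.155, with 12 above 0 and 33 below in place of 34 and 11 (22 changed sign), and 0 were called higher with a fold change over 2. Among those 22 were Kpnb1 and Nup160, neither called, at log2 fold changes of -0.211 and -0.0831, and Kpnb1 also without cKO 1, with a range of -0.0135 to 0.0625 over the libraries left out. Against a fold change of 1.2, 2 members were higher and 0 lower, 1 and 0 of the other transport genes, and 677 and 743 of all genes.

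The labels number the mice 1 to 3 in each group, but they are different mice. Deviations from the group means correlated at 0.0835, -0.215 and -0.00201 between mice of the same number, so the numbers were not taken as a pairing. With the replicate block, 5 members were higher and 1 lower (Ipo8, Kpna6, Tpr and Nup188 were lost). With a fold change over 2 as well, 0 members were higher (Nup210 was called at a log2 fold change of 0.99). Other transport genes called were 1 higher and 0 lower. All genes called were 927 higher and 972 lower (236 and 448 with a fold change over 2).

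With 1 library left out, members called were 2 to 12 higher and 1 to 2 lower, and 0 to 1 higher with a fold change over 2. Other transport genes were 1 to 4 higher and 0 to 1 lower. All genes were 766 to 1777 higher and 788 to 1808 lower, and 172 to 387 higher and 398 to 685 lower with a fold change over 2. Fewer libraries enter these fits. The other causes of these shifts were not tested. Measured over the longest transcript in place of all exons, mean levels per length were 89.3 for Ipo13, 55.8 for Ipo5, 53.2 for Kpna3 and 46.8 for Ran, so Ipo5 moved from the fourth place to the second and Ran from the third to the fourth, and Nup88 (15.6) came to lie above Tpr (15.5). Net39 had log2 fold changes of 3.95 to 4.31 under the alternatives run.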
